A study of Mus musculus with 8 samples.

Results

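Gangliosides are glycolipids of the cell surface that carry sialic acid, and the genes described here encode the enzymes that build them. The group held 10 genes of the 55536 in the count table, matched by symbol: Ugcg, B4galt5, B4galt6, St3gal5, St8sia1, St8sia3, St8sia5, B4galnt1, B3galt4 and St3gal2. The group was built around St8sia1, which was selected on its measured fall after Klf4 siRNA, and the other 9 were taken as neighbouring enzymes of the pathway. The samples were wild-type alphaTC6 cells, an established mouse line of glucagon-producing pancreatic alpha cells, harvested after a 48 h reverse transfection with a lipid reagent, and poly(A) RNA was sequenced. The control group received a scramble siRNA (4 libraries) and the other group a pool of siRNAs against Klf4, a zinc finger transcription factor (4 libraries, biological replicates per the design text). The samples came in 2 batches. Scramble replicates 1 and 2 and Klf4 siRNA replicates 1, 2 and 4 formed batch 1, and scramble replicates 3 and 4 with Klf4 siRNA replicate 3 formed batch 2. The extraction protocol names isolated islets as the source of RNA, but the other labels give alphaTC6 for all samples and are followed here. The labels give the batches by number alone, and all 8 libraries came from 1 cell line.

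Synthesis proceeds in steps in the Golgi. Ugcg puts glucose on ceramide, B4galt5 and B4galt6 add galactose to give lactosylceramide, and St3gal5 adds the first sialic acid to give the ganglioside GM3. St8sia1 adds a further sialic acid to GM3, which gives GD3 and opens the b-series, and St8sia3 and St8sia5 can extend the sialic acid chain. B4galnt1, B3galt4 and St3gal2 then lengthen the sugar chain and cap it, which gives the complex gangliosides that are best known from the nervous system.

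Total counts ran from 45954151 to 64185987 per library. Klf4 itself had 39.2, 35.1, 46.3 and 46.8 CPM (a library's count of the gene scaled to its TMM-corrected size) in scramble replicates 1 to 4, and 12.5, 11.5, 19.8 and 18.8 CPM in Klf4 siRNA replicates 1 to 4, so that 39.8% of the control level was left. It fell by 1.33 on the log2 scale (SE 0.17, edgeR adjusted p = 0.0083), and the groups did not overlap. That call was lost in batch 1 alone (log2 difference -1.39, edgeR adjusted p = 0.104) and without scramble replicate 1 (log2 difference -1.27, adjusted p = 0.052). The libraries stood apart by batch: the first principal component, with 59.9% of the variance, separated batch 1 from batch 2. Of the alpha cell markers, Gcg, Irx2, Ttr and Pou3f4 were present and Gc, at no more than 4 counts, was not. The beta cell genes Ins1 and Ins2 and the exocrine gene Prss2 had 0 counts in all 8 libraries, and the marker lists of beta, other islet, exocrine, and endothelial, immune or stromal cells summed to at most 7.33 CPM in any library. Not all of these markers were absent, and the highest was the exocrine gene Cela1, at 5.75 to 7.30 CPM.

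The bases before St8sia1 are shown first, because the group was built around it. Klf4 is known to bind sites of the CACCC type, and a link of such sites to the levels was not tested. St8sia1 (ENSMUSG00000030283) lies on the minus strand of chromosome 6, positions 142821545 to 142964452 of GRCm38, with 6 merged exons. The bases directly before its start, chr6:142964453-142964702 on the minus strand, are given 5′ to 3′ from RefSeq (GRCm38.p6), beside those of St3gal5, chr6:72097358-72097591 on the plus strand, which stop where the first annotated exon begins. Capitals mark the word CCCCACCC or its reverse complement GGGTGGGG.
St8sia1: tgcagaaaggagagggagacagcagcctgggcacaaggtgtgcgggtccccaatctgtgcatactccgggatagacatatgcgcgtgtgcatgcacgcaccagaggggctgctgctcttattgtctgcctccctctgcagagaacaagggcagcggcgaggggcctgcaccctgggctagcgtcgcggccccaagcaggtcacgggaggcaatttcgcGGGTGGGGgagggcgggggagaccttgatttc
St3gal5: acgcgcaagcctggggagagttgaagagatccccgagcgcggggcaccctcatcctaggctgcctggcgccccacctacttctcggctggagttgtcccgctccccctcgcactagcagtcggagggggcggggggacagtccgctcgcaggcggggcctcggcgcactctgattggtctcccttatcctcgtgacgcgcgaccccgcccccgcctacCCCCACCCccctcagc
In both genes the word lay 32 to 25 bases before the RefSeq start. It was searched on both strands of the 250 bases before each start, together with the shorter word CACCC, which it contains. CCCCACCC was found in 9.05% of 32851 windows of that length and CACCC in 52.0%. Only 5 of the 10 members were among the windows searched: St8sia1, St3gal5, Ugcg, B4galt5 and B3galt4. Of these 5, 5 held CACCC and 2, St8sia1 and St3gal5, held CCCCACCC. The other members were not searched, so whether they hold either word is not known here. The Ugcg window lies wholly within exon sequence of GENCODE, which starts the gene further upstream. These are matches of letters, and no binding was measured.

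St8sia1, the GD3 synthase, had 14.6, 15.1, 26.9 and 26.4 CPM in scramble replicates 1 to 4 and 5.93, 8.41, 16.4 and 8.22 CPM in Klf4 siRNA replicates 1 to 4. Within each batch every Klf4 siRNA library lay below every scramble library, but across batches the groups overlapped, because the Klf4 siRNA library of batch 2 (16.4 CPM) stood above the scramble libraries of batch 1. With batch as a term the log2 difference was -0.87 (SE 0.10), which leaves 54.8% of the scramble level. It was -1.0 within batch 1 and -0.70 within batch 2. These values chose the gene and are a description, not a test. In bulk RNA, fewer cells that express a gene and less RNA per cell cannot be told apart. Without the batch term the log2 difference was -1.09, which also holds part of the batch difference, since the treatments were unevenly split between the batches.

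**Figure D1:**
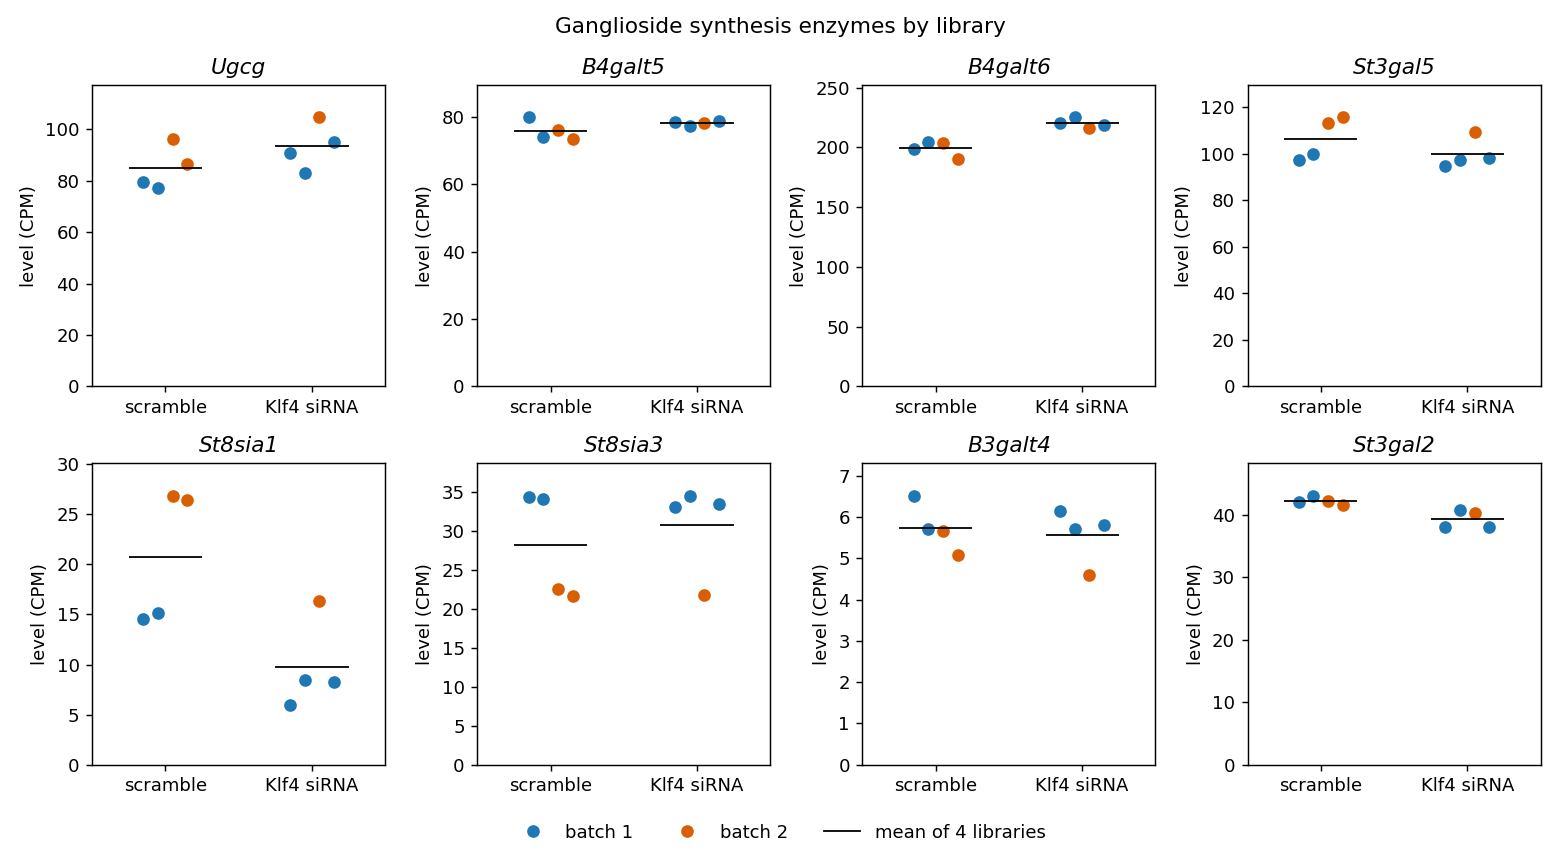
Level of each tested enzyme in CPM (vertical axes, each from 0) in the 4 scramble and 4 Klf4 siRNA libraries (horizontal axis), with points coloured by batch and a line at the mean of 4 libraries. St8sia1 lies between 14.6 and 26.9 CPM in scramble and between 5.93 and 16.4 CPM in Klf4 siRNA libraries, with batch 2 higher in each group, whereas B4galt6 lies a little higher after Klf4 siRNA in all libraries.

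Upstream of St8sia1, Ugcg and B4galt6 rose and B4galt5 and St3gal5 did not pass the test. Ugcg (ENSMUSG00000028381, chromosome 4, 59189257 to 59222833), which commits ceramide to glycolipid synthesis, had 79.5, 77.2, 96.2 and 86.5 CPM in scramble replicates 1 to 4 and 90.7, 83.2, 104.8 and 95.3 CPM in Klf4 siRNA replicates 1 to 4. The groups overlapped across batches, and within each batch all Klf4 siRNA libraries were higher. Ugcg rose to 115% of the scramble level (log2 difference 0.20, SE 0.04, edgeR adjusted p = 0.0072). The call was lost with no batch term (adjusted p = 0.514), when scramble replicate 2 was left out (0.052) and when Klf4 siRNA replicate 3 was (0.057).

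B4galt6 (ENSMUSG00000056124, chromosome 18, 20684599 to 20746404) and B4galt5 (ENSMUSG00000017929, chromosome 2, 167298444 to 167349183) encode the pair of galactosyltransferases that make lactosylceramide. B4galt6 had 199.0, 205.0, 203.8 and 190.6 CPM in scramble libraries and 220.5, 225.3, 216.4 and 219.2 CPM after Klf4 siRNA, with no overlap between the groups. It rose to 110% of the scramble level (log2 difference 0.13, SE 0.03, edgeR adjusted p = 0.0031), and it passed in all 16 alternatives. B4galt5 stood at 75.9 ± 2.94 CPM (SD, n = 4) with scramble siRNA and 78.3 ± 0.657 CPM (SD, n = 4) with Klf4 siRNA, and its change did not pass the threshold (log2 difference 0.038, 95% interval -0.03 to 0.10, edgeR adjusted p = 0.533). For every 100 counts of B4galt5 there were 248.9 to 277.1 counts of B4galt6 in scramble libraries and 276.2 to 291.2 in Klf4 siRNA libraries, and these ranges overlapped slightly.

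St3gal5 (ENSMUSG00000056091, chromosome 6, 72097592 to 72154571), the GM3 synthase, makes the substrate of St8sia1. Its levels were 97.2, 99.9, 113.1 and 115.6 CPM in scramble libraries, and 94.6, 97.2, 109.2 and 98.1 CPM in Klf4 siRNA libraries. The groups overlapped, and the log2 difference was -0.042 with a 95% interval from -0.10 to 0.02 (edgeR adjusted p = 0.417). The highest values in each group were those of batch 2.

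The transcripts of the GD3 and GM3 synthases were also compared as a ratio within each library, which does not depend on library scaling. St8sia1 had 15.002, 15.2, 23.8 and 22.8 counts per 100 counts of St3gal5 in scramble replicates 1 to 4. In Klf4 siRNA replicates 1 to 4 there were 6.27, 8.65, 14.99 and 8.37. The mean ratio in batch 1 was 15.1 in scramble and 7.76 in Klf4 siRNA libraries, and in batch 2 it was 23.3 in scramble libraries and 14.99 in the Klf4 siRNA library. Since the ratio follows the St8sia1 values that chose the group, it is a description.

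**Figure D2:**
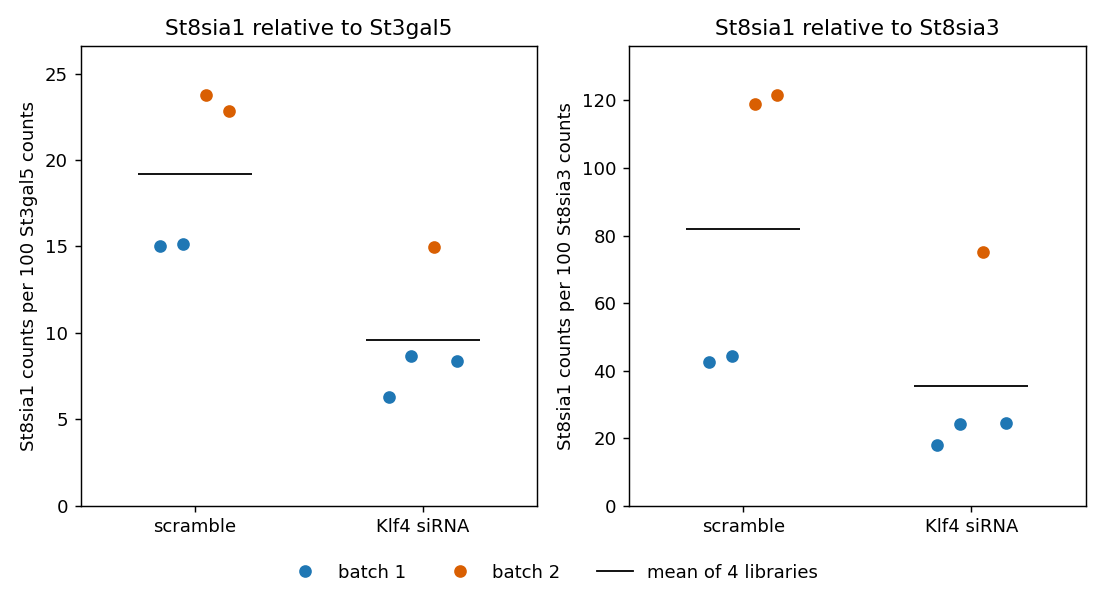
Counts of St8sia1 per 100 counts of St3gal5 (left) and per 100 counts of St8sia3 (right) in each library, by treatment (horizontal axis), with points coloured by batch and a line at the mean of 4 libraries. Relative to St3gal5 the scramble libraries lie between 15.002 and 23.8 and the Klf4 siRNA libraries between 6.27 and 14.99; relative to St8sia3 batch 2 is far above batch 1 in each group.

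St8sia3 (ENSMUSG00000056812, chromosome 18, 64254359 to 64279611) belongs to the same family as St8sia1 and adds sialic acid in the same linkage to glycolipids and glycoproteins. It had 34.3, 34.2, 22.6 and 21.7 CPM in scramble replicates 1 to 4 and 33.1, 34.5, 21.8 and 33.4 CPM in Klf4 siRNA replicates 1 to 4. The 3 libraries of batch 2 were the low ones in both groups, and within each batch the treatments differed by -0.02 on the log2 scale. The log2 difference with treatment was -0.024 with a 95% interval from -0.10 to 0.06 (edgeR adjusted p = 0.780). It was 0.13 without the batch term and 0.13 with a replicate block (edgeR adjusted p = 0.839 and 0.628). Both settings leave part of the batch difference in the treatment difference, as replicates 4 lie in different batches. St8sia5, which extends longer sialic acid chains, was close to absent, with 3 to 7 counts per library, too few to be tested.

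Of the enzymes that lengthen the chain, B4galnt1 (ENSMUSG00000006731, chromosome 10, 127165225 to 127172330), which makes GM2 and GD2, was also below the filter. It had 1, 2, 15 and 19 counts in scramble replicates 1 to 4 and 0, 3, 9 and 0 counts in Klf4 siRNA replicates 1 to 4. The 3 libraries with 9 or more counts were those of batch 2. A count of 0 still allows up to 3 counts, or 0.0609 CPM in Klf4 siRNA replicate 1 and 0.0566 CPM in replicate 4, by counting error alone. In batch 1 a treatment difference of B4galnt1 was not detectable at this depth.

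B3galt4 (ENSMUSG00000067370, chromosome 17, 33949909 to 33951488), which adds galactose to GM2 and GD2, had 5.08 to 6.52 CPM with scramble siRNA and 4.59 to 6.15 CPM with Klf4 siRNA. Its log2 difference was -0.12 with a 95% interval from -0.28 to 0.05 (edgeR adjusted p = 0.414). St3gal2 (ENSMUSG00000031749, chromosome 8, 110919922 to 110972480) puts a terminal sialic acid on the complex gangliosides. Its levels were 42.1, 43.0, 42.2 and 41.6 CPM in scramble libraries and 38.0, 40.8, 40.2 and 38.0 CPM after Klf4 siRNA, with no overlap. With a log2 difference of -0.10 (SE 0.04) its edgeR adjusted p was 0.072, so it did not pass the threshold. It did pass without Klf4 siRNA replicate 2 (adjusted p = 0.044) and when only genes with a mean of at least 5 CPM were tested (0.047).

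Of the 10 members, 8 passed the filter on low counts. With treatment, 3 of the 8 passed an edgeR adjusted p of 0.05, where 11.7% of all 16333 tested genes did. Ugcg and B4galt6 were higher (4.88% of all genes) and St8sia1 was lower (6.81% of all genes). Because St8sia1 was chosen for this contrast, nothing is read from the count. Without the batch term B4galt6 alone passed. The groups did not overlap in CPM for 2 of the 8, B4galt6 and St3gal2, against 10.5% of all tested genes. The median log2 fold change of the 8 was -0.033, and that of all tested genes 4.33e-05.

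**Figure D3:**
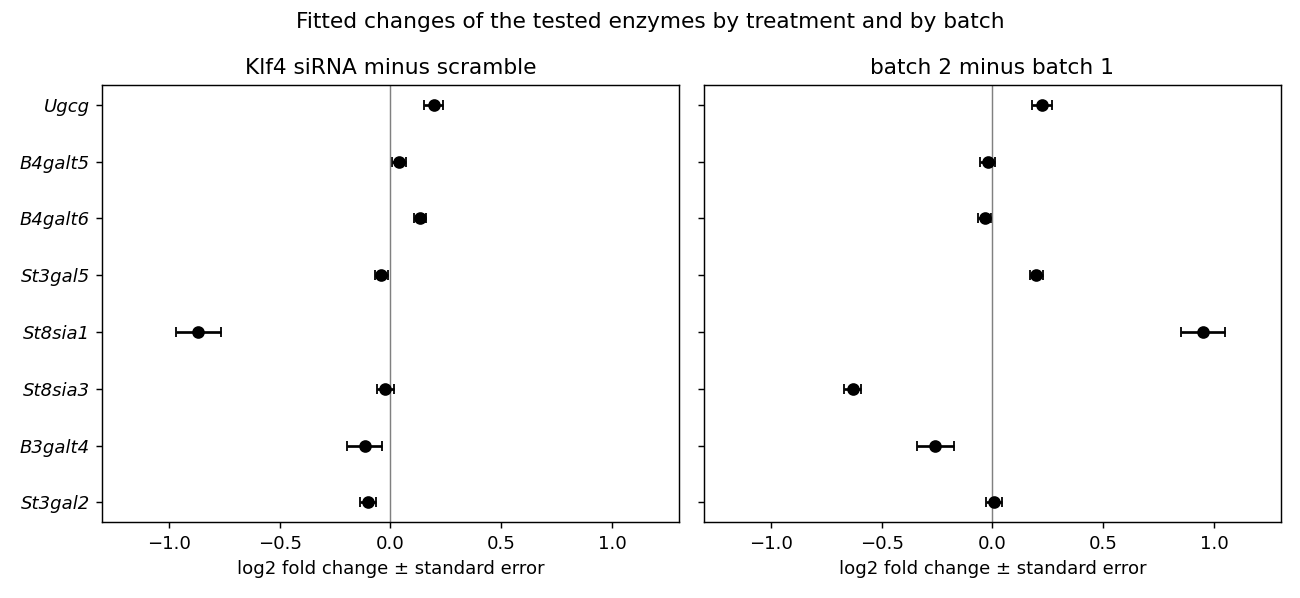
Fitted log2 fold changes (points) with standard errors (bars) of the 8 tested enzymes for Klf4 siRNA minus scramble (left) and batch 2 minus batch 1 (right). St8sia1 stands at -0.87 for treatment and 0.95 for batch, while St8sia3 stands at -0.024 for treatment and -0.63 for batch.

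Batch was compared because it separated the libraries. With treatment in the model, 5 of the 8 tested members passed the threshold, where 32.7% of all tested genes did (16.8% higher and 15.9% lower in batch 2). The 5 include St8sia1, whose batch value was known when the group was chosen, so nothing is read from the count. St3gal5 was higher in batch 2 by 0.20 on the log2 scale (SE 0.03, edgeR adjusted p = 2.25e-05) and Ugcg by 0.22 (SE 0.04, adjusted p = 0.0010). St8sia3 was lower by a log2 difference of -0.63 (SE 0.04), at 0.646 times the batch 1 level (edgeR adjusted p = 1.21e-10), and the batches did not overlap. For B3galt4 the log2 difference was -0.26 (SE 0.08, edgeR adjusted p = 0.021). That call was lost when Klf4 siRNA replicate 3 (adjusted p = 0.225) or scramble replicates 1 (0.090) or 4 (0.064) were left out. St8sia1 was 1.93-fold higher in batch 2, which is given without a test.

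The balance of the sialyltransferases St8sia1 and St8sia3 moved with batch. St8sia1 had 42.4 and 44.3 counts per 100 counts of St8sia3 in scramble replicates 1 and 2 (batch 1) but 119.1 and 121.6 in replicates 3 and 4 (batch 2). In Klf4 siRNA libraries the ratio was 17.9, 24.3 and 24.6 in batch 1 and 75.2 in batch 2. B4galt5, B4galt6 and St3gal2 did not pass the threshold for batch, with log2 differences of -0.021, -0.034 and 0.0071 (edgeR adjusted p = 0.674, 0.406 and 0.910). Glucagon RNA, as a marker of the cells, also moved with batch: Gcg ranged from 1065 to 1257 CPM in batch 1 and from 7640 to 8913 CPM in batch 2. Its part in the batch differences of the enzymes was not tested.

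Whether the response to the siRNA differed between batches was tested as an interaction. None of the 8 members passed (0% of all tested genes did with edgeR, DESeq2 or limma-voom). The count at an unadjusted p of 0.05 was 540 genes with edgeR, 176 with DESeq2 and 536 with limma-voom, and edgeR's 540 held no member. For St8sia1, chosen with its values by treatment and batch known, the interaction of 0.27 on the log2 scale (SE 0.18) is a description. Among the other members B3galt4 had the smallest unadjusted p (0.334 with edgeR), with an interaction of -0.17 on the log2 scale (SE 0.17). Batch 2 had a single Klf4 siRNA library, which limits this test.

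Levels between the enzymes were compared per length, as CPM per kilobase of merged annotated exon. In scramble libraries the order was St3gal5 (40.7 ± 3.53, SD, n = 4), B4galt6 (34.4 ± 1.13), B4galt5 (17.6 ± 0.682), Ugcg (16.3 ± 1.64), St3gal2 (8.37 ± 0.123), B3galt4 (3.64 ± 0.375), St8sia3 (2.41 ± 0.599) and St8sia1 (2.22 ± 0.728). B4galnt1 and St8sia5 were at most 0.0950 and 0.0274 CPM per kilobase. B4galt5 and Ugcg overlapped, as did St8sia3 and St8sia1, and B4galnt1 and St8sia5, while the other neighbours in the order did not. In scramble libraries the GM3 synthase St3gal5 was thus the highest of the group per length. The lowest of the tested enzymes depended on the batch: St8sia1 had 1.56 and 1.62 CPM per kilobase in the scramble libraries of batch 1, below St8sia3 at 2.94 and 2.92, and 2.88 and 2.82 in those of batch 2, above St8sia3 at 1.93 and 1.86. After Klf4 siRNA the means kept their order, but St3gal5 (36.1 to 41.7) and B4galt6 (37.3 to 38.8) overlapped, as did B3galt4 (2.91 to 3.89) and St8sia3 (1.86 to 2.95). B4galt6 was above St3gal5 in the 3 Klf4 siRNA libraries of batch 1, with 38.0, 38.8 and 37.7 against 36.1, 37.1 and 37.5 CPM per kilobase, and below it in that of batch 2. St8sia3 had 1.86 to 2.95 and St8sia1 0.635 to 1.75 CPM per kilobase after Klf4 siRNA, and these ranges did not overlap. Merged exons count every annotated isoform, so a gene with long unused exons is placed too low.

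**Figure D4:**
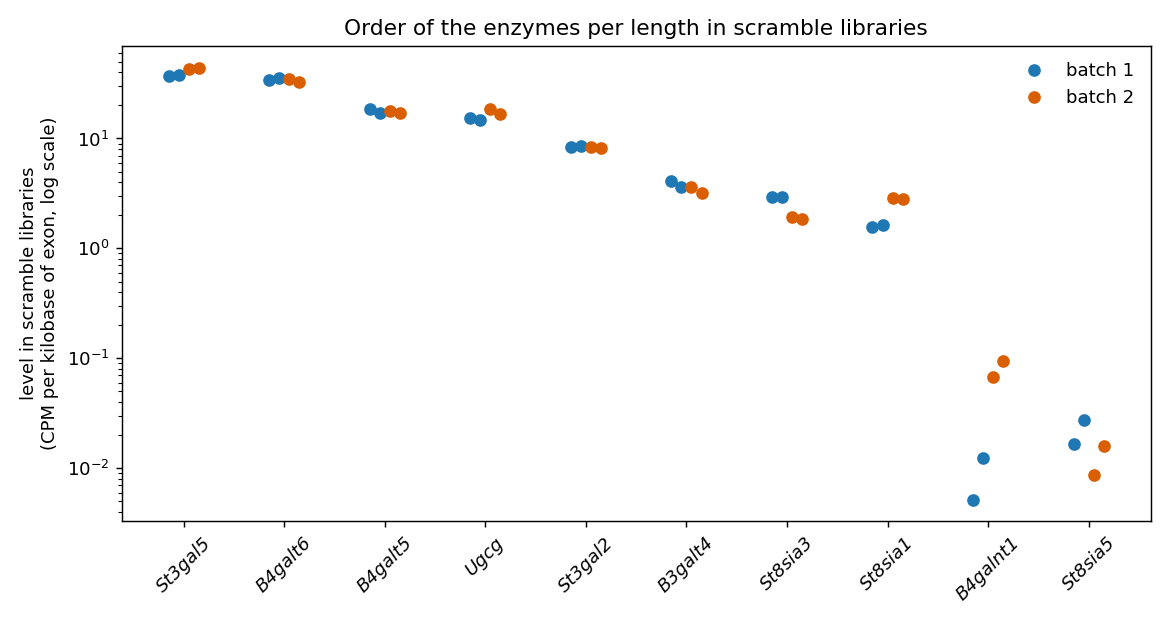
Level of all 10 enzymes in the 4 scramble libraries in CPM per kilobase of merged exon (vertical axis, log scale), ordered by the mean, with points coloured by batch. The 8 tested enzymes lie between 1.56 and 44.2, and B4galnt1 and St8sia5 lie below 0.0950.

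Parts of some enzymes overlap other annotations, and the use of strand in counting is not given in the sources used here. Within exons St8sia1 shares 149 bases with Gm7457, St8sia3 919 with St8sia3os, St8sia5 387 with Gm7276 and B4galnt1 715 with Slc26a10, all on the opposite strand. The highest count of these 4 partners in a library was 4, 7, 2 and 5, in the same order. Ugcg, B4galt5, B4galt6, St3gal5, B3galt4 and St3gal2 share no exonic base with another gene.

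The profile of St8sia1 over the 8 libraries was compared with those of 12721 other genes with a mean of at least 1 CPM, by the root mean square difference of centred log2 CPM. The nearest was Timp2, a tissue inhibitor of metalloproteinases, at 0.154, followed by Tmem144 (0.280), Cyp2j6 (0.304), Apol8 (0.305) and Pdgfrl (0.305). Timp2 had 8.38, 10.01, 17.1 and 18.0 CPM in scramble libraries and 5.10, 5.40, 10.99 and 5.73 CPM in Klf4 siRNA libraries. Like St8sia1 it was lower after Klf4 siRNA within each batch and higher in batch 2 within each treatment. None of these 5 genes was a ganglioside enzyme, and likeness over 8 libraries that share 1 batch split is a description.

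The genes around the pathway were taken from 5 further lists with 72 genes, of which 57 were tested. With edgeR none of the 57 was called higher after Klf4 siRNA and 11 were called lower (19.3%), beside 4.88% and 6.81% of all tested genes. At an unadjusted edgeR p of 0.05, 2 were higher and 18 lower. The share of all tested genes at that threshold was not counted, so nothing is read from these 2 counts. DESeq2 and limma-voom each called 0 higher and 10 lower. Without the batch term 1 of them was called, and 5 were called in batch 1 alone, without scramble replicate 2 or without Klf4 siRNA replicate 3, and 7 without scramble replicate 1. Over all genes the calls also fell, from 1909 to 409, 1232, 1012, 1232 and 934 in the same order. Without Klf4 siRNA replicate 4, 2 of the 57 were higher and 12 lower (893 and 1128 over all genes). By batch, 21 were higher (36.8%) and 2 lower (3.51%) in batch 2, beside 16.8% and 15.9% of all tested genes. The lists were chosen with earlier results of these data known, so the counts are descriptions.

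The breakdown list held the mostly lysosomal enzymes and activators that take gangliosides apart, and the members called there were all lower. Of its 15 tested genes 4 were called lower, where 6.81% of all tested genes were, and 1 without the batch term. The median log2 difference was -0.11. Galc, which removes galactose from galactosylceramide and lactosylceramide, had 43.7, 48.6, 43.1 and 41.8 CPM in scramble libraries and 33.4, 34.6, 32.2 and 33.1 CPM after Klf4 siRNA, with no overlap. It fell to 74.1% of the scramble level (log2 difference -0.43, SE 0.04, edgeR adjusted p = 1.9e-07).

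Psap, the precursor of the saposins that present glycolipids to the enzymes, stood at 1234 ± 85.6 CPM (SD, n = 4) with scramble siRNA and 1078 ± 71.7 CPM with Klf4 siRNA. Its log2 difference was -0.15 (edgeR adjusted p = 0.0012), as was that of Ctsa, the protective protein of Neu1 and Glb1 (edgeR adjusted p = 0.0028). Psap and Ctsa did not pass without the batch term (log2 difference -0.19 and -0.17, edgeR adjusted p = 0.155 and 0.071), whereas Galc passed in every alternative run. Without the batch term these differences also hold part of the batch difference. Ctsa shares 819 exonic bases with genes on the opposite strand. By batch 9 of the 15 were called higher in batch 2 and 0 lower with edgeR (16.8% and 15.9% of all tested genes). Gm2a, the GM2 activator, was 2.26-fold higher in batch 2 (edgeR adjusted p = 4.26e-13), and Asah2, a neutral ceramidase, 2.88-fold (1.02e-10).

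**Figure D5:**
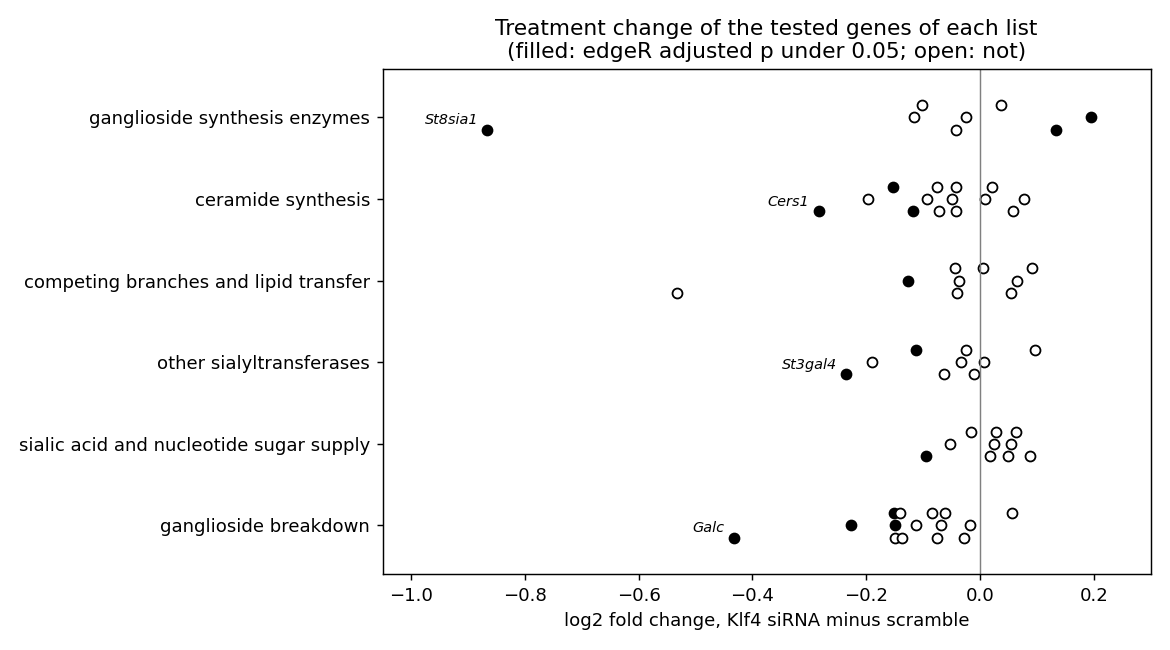
Log2 fold change (horizontal axis, Klf4 siRNA minus scramble) of each tested gene of the enzyme group and of the 5 further lists (rows), filled where the edgeR adjusted p was under 0.05. St8sia1 stands alone at -0.87, Galc is the lowest called gene outside the enzyme group at -0.43, and no filled point of the further lists lies above 0.

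Among 14 tested genes of ceramide synthesis 3 were lower after Klf4 siRNA (6.81% of all tested genes), with a median log2 difference of -0.061. Sptssa and Sptlc2, parts of the serine palmitoyltransferase that starts sphingolipid synthesis, had log2 differences of -0.15 and -0.12 (edgeR adjusted p = 0.0078 and 0.018). Neither passed without the batch term, in batch 1 alone, without scramble replicate 2 or without Klf4 siRNA replicate 3, nor did Sptlc2 without scramble replicate 1. The adjusted p in these settings reached 0.074 for Sptssa and 0.135 for Sptlc2. Cers1, a ceramide synthase, had a log2 difference of -0.28 (edgeR adjusted p = 0.047). It lost the call in 10 of 16 alternatives (adjusted p of up to 0.516 in all 10, 0.355 with a replicate block). Among them were leaving out scramble replicates 1, 2 or 4 or Klf4 siRNA replicates 2, 3 or 4. The log2 difference was larger with no batch term (-0.48) and with the block (-0.50). Both settings leave part of the batch difference in the treatment difference, as replicates 4 lie in different batches. Cers1 shares 1349 exonic bases with Gdf1 on the same strand. By batch 4 of the 14 were higher and 1 lower (16.8% and 15.9% of all tested genes), and 2 and 1 without Klf4 siRNA replicate 3. In batch 2 Cers1 was 1.76-fold higher and Ormdl1, a regulator of that first enzyme, was 0.20 higher on the log2 scale, while Kdsr, the next enzyme, was at 0.892 times the batch 1 level (edgeR adjusted p = 7.61e-07, 0.00080 and 0.00058).

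Of the 9 tested genes of competing branches and lipid transfer, Cerk, the ceramide kinase, alone was called (11.7% of all tested genes were), and the median log2 difference was -0.037. Cerk stood at 162.7 ± 2.97 CPM with scramble siRNA and 147.4 ± 4.87 CPM with Klf4 siRNA (SD, n = 4), a log2 difference of -0.13 (edgeR adjusted p = 0.0027, but 0.052 with no batch term). By batch 1 of the 9 was higher and 1 lower (16.8% and 15.9% of all tested genes). B3galnt1, the globoside synthase, was 1.42-fold higher in batch 2 and Plekha8, which carries glucosylceramide through the Golgi, was at 0.859 times the batch 1 level (edgeR adjusted p = 1.05e-07 and 0.00028).

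Of the 9 other sialyltransferases tested 2 were lower (6.81% of all tested genes), with a median log2 difference of -0.033. St3gal4, which acts mainly on glycoproteins, differed by -0.23 on the log2 scale (SE 0.07, edgeR adjusted p = 0.030), and St6galnac6, which adds sialic acid to complex gangliosides, by -0.11 (SE 0.03, adjusted p = 0.032). Each lost the call in 8 of 16 alternatives. For St3gal4 these were no batch term (adjusted p = 0.400), batch 1 alone (0.102), a replicate block (0.068), and leaving out scramble replicates 1 or 2 or Klf4 siRNA replicates 1, 2 or 3 (up to 0.211). For St6galnac6 they were no batch term (adjusted p = 0.394), batch 1 alone (0.207), a replicate block (0.071), and leaving out scramble replicates 1, 2 or 4 or Klf4 siRNA replicates 1 or 3 (up to 0.227). With no batch term and with the block the log2 differences themselves were larger, -0.37 in both for St3gal4 and -0.18 in both for St6galnac6. Both settings leave part of the batch difference in the treatment difference, as replicates 4 lie in different batches. By batch 6 of the 9 were called higher in batch 2 and 0 lower with edgeR (16.8% and 15.9% of all tested genes). St3gal6 was 1.54-fold higher (edgeR adjusted p = 3.47e-09), St3gal4 1.45-fold (4.03e-06) and St6galnac6 0.26 higher on the log2 scale (5.52e-06), the direction in which St8sia1 and St3gal5 also lay and St8sia3 did not.

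The supply of sialic acid and sugar nucleotides had 10 tested genes, with a median log2 difference of 0.027. Nans, which makes the sialic acid backbone, alone passed for treatment (log2 difference -0.095, edgeR adjusted p = 0.040, where 11.7% of all tested genes passed) and for batch (0.094, adjusted p = 0.021, where 32.7% passed). The treatment call was lost in 10 of 16 alternatives, among them without any single scramble replicate and without Klf4 siRNA replicates 2 or 3 (adjusted p of up to 0.210 in all). The batch call was lost in 6 of 13 alternatives, among them without scramble replicates 2, 3 or 4 or Klf4 siRNA replicate 3. Nans shares 1356 exonic bases with Trim14 on the opposite strand.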

How the data were processed

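Poly(A) RNA of 8 alphaTC6 libraries was measured. The deposited values are raw counts per gene, 1 column per library. The submitters' design text names edgeR with batch correction, and their processing notes name FastQC, STAR, featureCounts, DESeq2 and the build mm10, with no versions or roles, and the aligner settings and use of strand are not given in the sources used here. All 55536 identifiers and symbols matched GENCODE M21 (GRCm38).

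Genes were kept with filterByExpr (16333), scaled with TMM and compared with edgeR 4.0.16 in R 4.3.3 across all genes: the quasi-likelihood test in its robust form, with terms for treatment and batch and 5 residual degrees of freedom, two-sided p-values, Benjamini-Hochberg adjustment over all tested genes and a threshold of 0.05. The interaction was fitted separately. The SE of a log2 difference is its size over the square root of F, and 95% intervals use the moderated degrees of freedom. Within-batch changes are differences of mean log2 CPM (prior count 2). The test was first tested on simulated data. Pairs of libraries differed by more than sampling noise (chi-square per degree of freedom of at least 10.2).

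The members and lists were chosen with earlier results of these data known. Named were Klf4, all members, from each further list at most 4 genes called for treatment and 3 for batch with the smallest adjusted p, and the 5 genes nearest to St8sia1. Some genes that this rule or the marker lists name are not reported here. Alternatives were no batch term, a replicate block, batch 1 alone, DESeq2 size factors, the DESeq2 1.42.0 Wald test, limma-voom 3.58.1, other filters and each library left out. P-values rest on the spread between libraries, and counts include any PCR duplicates, since no molecular identifiers are mentioned.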

Additional observations from a re-analysis of the deposited data

Results flagged for a closer look

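Among 30 named genes, 60 groups of 4 libraries were examined for a library far from the other 3, by the gap to its nearest neighbour as a share of the range. Among alike libraries chance passes about 1 in 20 groups, or 3 of 60, and 3 were found. In each the library was Klf4 siRNA replicate 3, which alone of its group belonged to batch 2. It was lowest for St8sia3 (21.8 CPM, next 33.1 CPM, gap of 0.890 of the range), highest for Gm2a (32.3 against 15.5 CPM, 0.951) and highest for Asah2 (5.66 against 2.08 CPM, 0.909). For these 3 genes the scramble libraries of batch 2 also lay to that side of those of batch 1: 22.6 and 21.7 against 34.3 and 34.2 CPM for St8sia3, 35.7 and 38.6 against 14.8 and 17.1 CPM for Gm2a, and 6.57 and 5.79 against 2.02 and 2.34 CPM for Asah2. Gm2a and Asah2 were named for their difference by batch, so their place here follows from that choice.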

How the results depend on the processing

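Over all genes, 1909 were called for treatment. The count was 409 without the batch term and 1232 in batch 1 alone, and with a library left out it ran from 934 to 2021 (934 without scramble replicate 1, 1012 without scramble replicate 2, 1232 without Klf4 siRNA replicate 3). The treatments share replicate numbers. The deviations of same-numbered libraries correlated at 0.49, 0.42 and 0.72 for replicates 1 to 3, which share a batch, and at -0.34 for replicates 4, which do not. These deviations still hold the batch difference, so the sign of a correlation, that of replicates 4 included, cannot decide on pairing. Since the labels do not say what a number marks, pairing was not assumed, though it may hold for replicates 1 to 3. Of the 8 libraries, 5 correlated best with their own number in the other group. Swapping the batch term for a replicate block gave 1220 called genes. Of the enzymes, 3 were called for treatment, 1 without the batch term and 2 to 4 with a library left out. The interaction called 0 genes, 17 with no filter on low counts and 13 without scramble replicate 3. Without Klf4 siRNA replicate 3 it could not be fitted. The batch count kept within 1.5 times of 5343 in the 13 alternatives run. Some small changes that did not pass the threshold changed sign. For treatment, St8sia3 was at 0.13 without the batch term and 0.13 with the replicate block, and Plekha8 at 0.015 and 0.016. Both settings leave part of the batch difference in the treatment difference. With a library left out, St8sia3 (-0.035 to -0.014) and Plekha8 (-0.066 to -0.0098) kept their sign. St3gal6 was at 0.022 in batch 1 alone and, without scramble replicates 2 or 3 or Klf4 siRNA replicates 1 or 3, at 0.015, 0.0041, 0.0098 and 0.025 (from -0.057 to 0.025 over all libraries left out). For batch, B4galt5 was at 0.0084 without scramble replicate 1 (-0.045 to 0.0084 over all), and St3gal2 at -0.0032, -0.023 and -0.0033 without Klf4 siRNA replicates 1, 3 and 4 (-0.023 to 0.020 over all). The single Klf4 siRNA library of batch 2 limits the interaction, and counts under 20 per library limit B4galnt1 and St8sia5.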

Other observations

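Several enzymes of neighbouring glycolipid branches were at or near 0 counts. Sptlc3, Sptssb, St8sia6, Neu2 and Neu4 had 0 counts in all 8 libraries, which allows up to 3 counts per library by counting error alone. A4galt, which starts the globo-series, reached 1 count, B3gnt5, which starts the lacto-series, 5 counts and Ugt8a, the galactosylceramide synthase, 4 counts in any library. Cmah, which converts sialic acid to its glycolyl form, reached 2 counts. St8sia2, a polysialyltransferase, had 5 and 6 counts in the scramble libraries of batch 2 and at most 2 in the others. These genes were picked after their values were seen.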
